A study of Mus musculus with 4 samples.

Results

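Cadherins and nonclustered protocadherins were examined in tdTomato+ neurons derived from mouse ES cells. Members were taken by symbol, as every gene named Cdh or Pcdh followed by a number in all 4 deposited tables, with an optional final x. The 35 members, 23 cadherins and 12 protocadherins, stand among 34968 symbols shared by the 4 libraries. Clustered protocadherins, whose symbols carry a letter for their cluster, were not included.

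Both lines came from a Dlx6-Cre; Ai9 parental ES line of C57/BL6 background, in which Cre activity in subpallial lineages switches on tdTomato. The N/D line carries Nkx2-1 and a tetracycline transactivator driven by Nestin together with a transactivator-responsive Dlx2 transgene, and in the N/D/S line the responsive transgene holds Dlx2 and St18. Both lines were selected as clones, so a line difference and a difference between clones cannot be told apart. Embryoid bodies of both lines received XAV-939, a Wnt inhibitor, and SAG, a Sonic hedgehog agonist, and tdTomato+ cells were sorted on day 12. Each line gave 2 libraries, labelled replicate 1 and replicate 2. The labels do not say whether the replicates came from separate differentiations, so p-values measure only the spread between these libraries.

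Cadherins are calcium-dependent adhesion proteins that join cells through their outer repeats. Classical cadherins hold like cells together and are tied to actin through catenins on their inner side, and differing sets of type I and type II cadherins help neurons sort into nuclei and layers. Nonclustered protocadherins adhere more weakly, and their delta-1 and delta-2 groups, which differ in their cytoplasmic motifs, take part in migration, axon growth and synapse formation. Neurons of the medial ganglionic eminence exchange one set of adhesion proteins for another as they leave the germinal zone. The comparison of N/D/S with N/D asks whether these genes differ when St18 is added to Nkx2-1 and Dlx2.

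Levels were deposited as TPM (transcript abundance scaled to a common library total), which are also normalized for transcript length, so that levels of different genes can be compared. St18 itself had 44.4 TPM in N/D/S replicate 1 and 15.9 TPM in N/D/S replicate 2, against 28.5 and 26.6 TPM in N/D replicates 1 and 2. St18 thus did not separate the lines, and N/D/S and N/D below name the libraries as labelled, each direction resting on those labels. TPM keep no read counts, so depth is unknown. Between 13426 genes (N/D replicate 1) and 20750 genes (N/D/S replicate 1) had a value above 0. N/D replicate 1 listed at 0 a total of 613 of the 6139 genes that reached 10 TPM in each of the others, where no other library did so for more than 2. Neuronal markers (Tubb3, Dcx, Stmn2, Map2, Elavl3, Snap25) were present in every library, as were all 7 GABAergic forebrain markers, which summed to between 467 and 1206 TPM. Markers of pluripotent cells summed to 291 and 185 TPM in the replicate 2 libraries of N/D/S and N/D, against 3.50 and 0.247 TPM in their replicate 1 libraries. Markers of the oligodendrocyte lineage summed to 49.96 and 152 TPM in the replicate 2 libraries, against 12.7 TPM in N/D/S replicate 1. All of them were listed at 0 in N/D replicate 1. Markers of mesenchyme were likewise higher in the replicate 2 libraries (27.6 and 46.8 against 7.56 and 0.0778 TPM). So were those of astrocytes (25.0 and 35.2 against 6.45 and 0.0807 TPM). Neural progenitor markers summed to 700.1 and 1215 against 507 and 436 TPM. Of this, Fabp7 alone gave 506 and 906 against 179 and 134 TPM. Hes5 was also higher in the replicate 2 library of each line. Vim (78.3 and 123 against 150 and 219 TPM) and Pax6 (7.33 and 13.7 against 14.1 and 25.4 TPM) were lower. Sox2, Nes, Mki67 and Top2a differed in direction between the lines. Glutamatergic markers ran the other way, with 1.27 and 3.21 TPM in the replicate 2 libraries against 19.1 and 17.3 TPM in replicate 1. Endothelial markers summed to 38.8 TPM in N/D replicate 1, nearly all from Pecam1, and to between 3.26 and 8.10 TPM elsewhere. The part of such cells in the differences between members was not tested. In bulk samples fewer cells of a type and less RNA per cell cannot be told apart.

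Of the 35 members, 23 had at least 1 TPM in at least 2 libraries and were tested, 12 cadherins and 11 protocadherins. Summed over all members, the level was 564 and 155 TPM across N/D/S against 224 and 347 TPM across N/D, in replicate order. In N/D replicate 1, 17 of the 35 members were listed at 0, against 2 to 6 in the other libraries. Of all 34968 shared symbols, 13426 had a value above 0 in N/D replicate 1, against 17118 to 20750 in the other libraries. Among the tested members, 10 of 23 (43.5%) had under 0.05 TPM in N/D replicate 1, where 33.6% of all tested genes did. The corresponding number was 5 of 23 (21.7%) in N/D/S replicate 2, against 3.64% of all tested genes, and 0 in the remaining libraries. A member that passed the filter through 2 libraries could lie near 0 in the others, and in every such case the low libraries included N/D replicate 1 or N/D/S replicate 2.

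**Figure D1:**
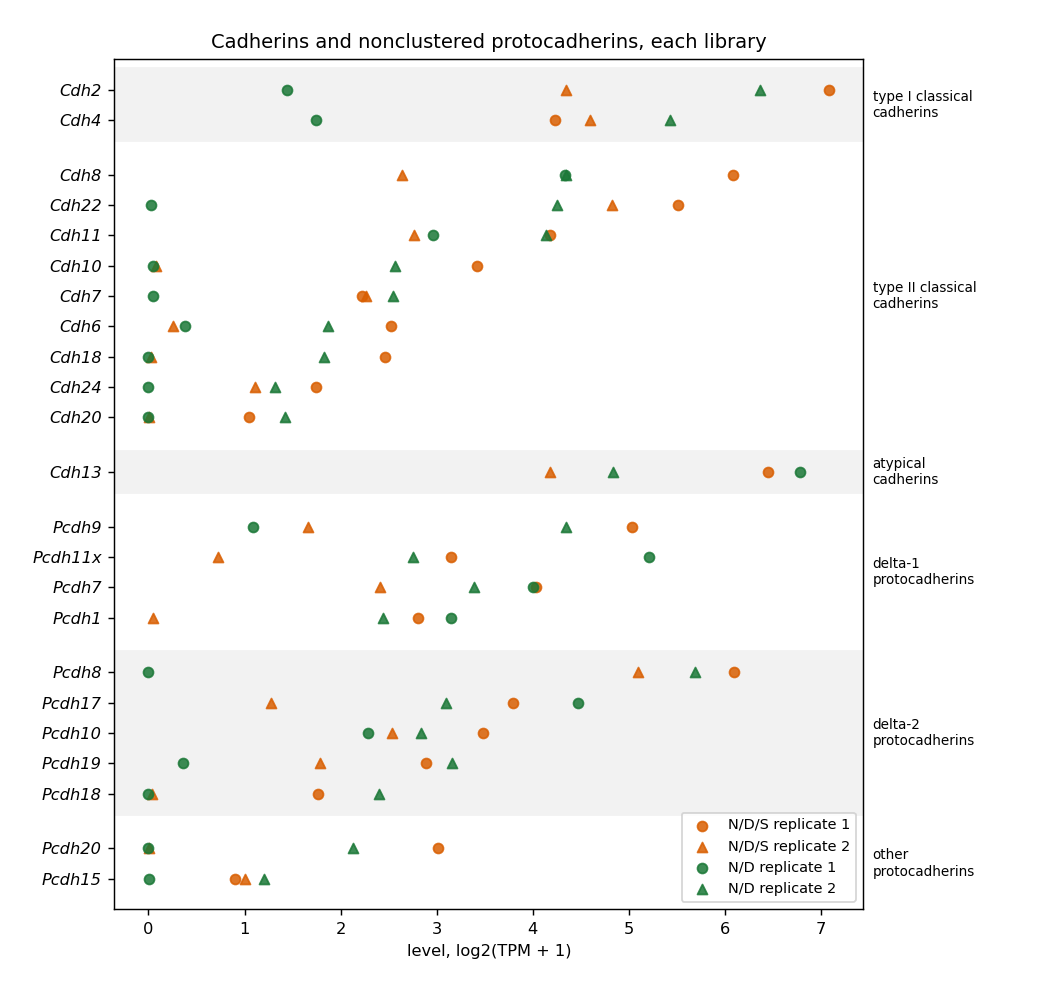
Level of each of the 23 tested members on the log2(TPM + 1) axis, 1 point per library, grouped by role. N/D/S libraries are orange and N/D libraries green, with circles for replicate 1 and triangles for replicate 2. Cdh22 is the only row in which both orange points lie above both green points.

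The type I cadherins were led by Cdh2 (N-cadherin, the general adhesion protein of neural progenitors and neurons). Cdh2 had 135 TPM in N/D/S replicate 1, 19.2 TPM in N/D/S replicate 2, 1.71 TPM in N/D replicate 1 and 81.2 TPM in N/D replicate 2. The lines overlapped, with the lowest and the second highest value both in N/D. The difference of N/D/S minus N/D was 1.81 on the log2(TPM + 1) scale (SE 1.78, adjusted p = 1 from limma), and it was -0.65 when N/D replicate 1 was left out. Cdh4 (R-cadherin, which binds itself and Cdh2) had 17.8 and 23.2 TPM in N/D/S replicates 1 and 2, and 2.34 and 42.0 TPM in N/D replicates 1 and 2. Both N/D/S values of Cdh4 lay between the N/D values, and the log2 difference was 0.83 (SE 1.37). E-cadherin, encoded by Cdh1 and typical of epithelium and pluripotent cells, did not exceed 0.771 TPM in any library. That highest value was in N/D replicate 2, where the 6 epithelial markers summed to 12.6 TPM. In N/D/S replicate 2 those markers summed to 44.0 TPM, mostly from Krt8 (25.6 TPM) and Krt18 (9.13 TPM), and Epcam had 0.655 TPM. Cdh1 had 0.0623 TPM in that library, where the markers of pluripotent cells summed to 291 TPM. Cdh3 (P-cadherin) stayed at or below 0.265 TPM and Cdh15 (M-cadherin, of muscle) at or below 0.174 TPM.

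Among type II cadherins, which bind in selective combinations, Cdh22 and Cdh8 had the highest mean levels. Cdh22 lies on the minus strand of chromosome 2 from 165111507 to 165234853 (GRCm38, GENCODE M21). It had 44.6 TPM in N/D/S replicate 1 and 27.2 TPM in N/D/S replicate 2, against 0.0223 TPM in N/D replicate 1 and 18.0 TPM in N/D replicate 2. Both N/D/S libraries were above both N/D libraries, which held for no other member. Over all tested genes, 8.69% had both N/D/S libraries above both N/D libraries. The log2 difference of Cdh22 was 3.03 (SE 1.49), the largest of the members towards N/D/S, with an unadjusted p of 0.0811 and an adjusted p of 1 from limma. It ranked 84 of 12975 genes towards N/D/S. The value rested on N/D replicate 1, since without that library the log2 difference was 0.92, and within replicate 2 it was 0.57.

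The promoters of Cdh22 and of the delta-2 protocadherin Pcdh8, the members with the largest differences towards N/D/S, are shown so that the base composition of these members can be compared. The windows are the 250 bases before the transcription start from RefSeq on GRCm38.p6, on the minus strand at chr2:165234738-165234987 for Cdh22 and chr14:79771313-79771562 for Pcdh8. The RefSeq start of Cdh22 lies inside the GENCODE M21 span given above, so part of its window is within that annotated gene, whereas the Pcdh8 window lies next to its annotated gene. Both windows are written 5′ to 3′ with CG dinucleotides in capitals.
Cdh22: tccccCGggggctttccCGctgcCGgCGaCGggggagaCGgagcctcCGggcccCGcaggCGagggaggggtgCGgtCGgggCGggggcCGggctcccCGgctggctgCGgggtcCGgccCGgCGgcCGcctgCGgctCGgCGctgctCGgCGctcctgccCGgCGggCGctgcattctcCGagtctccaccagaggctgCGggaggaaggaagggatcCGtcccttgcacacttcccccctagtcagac
Pcdh8: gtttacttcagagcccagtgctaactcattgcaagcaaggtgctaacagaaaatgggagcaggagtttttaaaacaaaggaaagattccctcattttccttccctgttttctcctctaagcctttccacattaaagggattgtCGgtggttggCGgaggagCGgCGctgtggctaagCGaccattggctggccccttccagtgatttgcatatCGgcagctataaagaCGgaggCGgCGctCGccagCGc

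The Cdh22 window holds 30 CG dinucleotides and the Pcdh8 window 11. Longer RefSeq promoter windows, which also take in the first 50 transcribed bases, were matched for 22 of the 35 members, with 25 windows. Their median was 14 CG dinucleotides, against 7 over all 32851 windows. The core AAAGTTT recognised by St18 and other Myt1 family zinc fingers was searched on both strands and was found in 0 of the 22 members, and in 5.44% of all symbols with a window. The E-box CAGGTG, bound by Zeb and Snail repressors, was found in Cdh7, Pcdh7 and Pcdh15 (13.6% of matched members, against 22.6% of all symbols). The letters TATAAA were found in Pcdh8 and Pcdh15, against 15.7% of all symbols. Such matches describe these windows and do not show binding, and the absence of a match says nothing about sites elsewhere.

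Cdh8, found in subsets of forebrain neurons, had 66.7 TPM in N/D/S replicate 1, 5.22 TPM in N/D/S replicate 2, 19.1 TPM in N/D replicate 1 and 19.3 TPM in N/D replicate 2. The N/D values were nearly equal and lay between the widely spaced N/D/S values, so that the log2 difference was 0.02 (SE 1.33). This sign was not stable, being -0.037 with a pseudocount of 0.1 TPM and -0.048 with median-of-ratios scaling. Cdh11 had 17.1 and 5.80 TPM across N/D/S against 6.79 and 16.5 TPM across N/D, in replicate order. Its log2 difference of -0.08 (SE 1.07) became 0.22 with upper quartile scaling.

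Several other type II cadherins were present in N/D/S replicate 1 as well as N/D replicate 2 and near 0 in the remaining libraries. Cdh10 had 9.69 TPM in N/D/S replicate 1 and 4.91 TPM in N/D replicate 2, against 0.0551 TPM in N/D/S replicate 2 and 0.0306 TPM in N/D replicate 1. Cdh18 had 4.53 and 2.54 TPM in the same higher libraries, 0.0159 TPM in N/D/S replicate 2, with 0 listed for N/D replicate 1. Cdh6 (K-cadherin, a marker of regional boundaries in the embryonic forebrain) had 4.74 and 2.66 TPM, against 0.194 TPM in N/D/S replicate 2 and 0.301 TPM in N/D replicate 1. Cdh20 had 1.07 and 1.69 TPM, against 0.00576 TPM and a listing at 0. In these 4 genes each line therefore held a high and a low library, and the log2 differences were between -0.18 (Cdh20) and 0.44 (Cdh10). Cdh7 and Cdh24 were low only in N/D replicate 1. Cdh7 had 3.68 and 3.796 TPM in N/D/S, 0.0322 TPM in N/D replicate 1 and 4.83 TPM in N/D replicate 2, a log2 difference of 0.95 (SE 1.16). Cdh24 had 2.35 and 1.16 TPM in N/D/S, was listed at 0 in N/D replicate 1 and had 1.49 TPM in N/D replicate 2, a log2 difference of 0.77 (SE 1.03).

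Cdh13 (T-cadherin, which is held by a lipid anchor and lacks the catenin-binding tail) was the only atypical cadherin to pass the filter. It had 86.0 TPM in N/D/S replicate 1, 17.1 TPM in N/D/S replicate 2, 108 TPM in N/D replicate 1 and 27.5 TPM in N/D replicate 2. Both replicate 1 libraries were above both replicate 2 libraries, and within each replicate number N/D/S was the lower. Its log2 difference was -0.49 (SE 1.24, adjusted p = 1 from limma). N/D replicate 1, which held the lowest value of 15 tested members, held the highest value of Cdh13.

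The delta-1 protocadherins, which share a cytoplasmic motif that binds a protein phosphatase, had fitted differences of both signs, none past the threshold. Pcdh11x, on the X chromosome, had 7.84 and 0.649 TPM across N/D/S against 35.9 and 5.75 TPM across N/D, in replicate order. It was lower for N/D/S under each replicate number, by similar amounts, with log2 differences of -2.06 in replicate 1 and -2.03 in replicate 2. The lines nevertheless overlapped, since N/D/S replicate 1 exceeded N/D replicate 2. The log2 difference was -2.05 (SE 1.33, adjusted p = 1 from limma), the largest of the members towards N/D, and it ranked 100 of 12975 genes in that direction. Without N/D replicate 1 it was -0.82. Pcdh1 had 6.004 and 0.0338 TPM across N/D/S against 7.88 and 4.43 TPM across N/D, a log2 difference of -1.37 (SE 1.22) that became 0.011 without N/D/S replicate 2. Pcdh7 had 15.4 and 4.33 TPM across N/D/S against 15.0 and 9.50 TPM across N/D, with a log2 difference of -0.47 (SE 1.06). Pcdh9 had 31.7 and 2.16 TPM across N/D/S against 1.13 and 19.3 TPM across N/D, with a log2 difference of 0.63 (SE 1.57).

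Of the delta-2 protocadherins, Pcdh8 (arcadlin in its activity-induced form, which acts in the removal of cadherins from synapses) had the highest mean level. It lies on the minus strand of chromosome 14 from 79766775 to 79771312. Pcdh8 had 67.2 and 33.1 TPM in N/D/S replicates 1 and 2 and 50.6 TPM in N/D replicate 2, and was listed at 0 in N/D replicate 1. The log2 difference was 2.75 (SE 1.81, adjusted p = 1 from limma), and -0.10 without N/D replicate 1. Pcdh17, which is placed along basal ganglia pathways and limits synaptic vesicle assembly, had 12.8 and 1.42 TPM across N/D/S against 21.1 and 7.53 TPM across N/D. It was lower for N/D/S under each replicate number, and its log2 difference was -1.25 (SE 1.22). Leaving out N/D/S replicate 2 brought the Pcdh17 value to 0.0097. Pcdh10 (OL-protocadherin, needed for the growth of striatal axons) had 10.2 and 4.80 TPM across N/D/S against 3.87 and 6.14 TPM across N/D, with a log2 difference of 0.45. Its SE of 1.00 on the log2(TPM + 1) scale was the smallest of the tested members. Pcdh19, the X-linked gene mutated in a clustering epilepsy of girls, had 6.38 and 2.44 TPM across N/D/S against 0.284 and 7.95 TPM across N/D, with a log2 difference of 0.57 (SE 1.25). Pcdh18 had 2.40 TPM in N/D/S replicate 1 and 4.29 TPM in N/D replicate 2, against 0.0267 TPM in N/D/S replicate 2 and a listing at 0 in N/D replicate 1. The log2 difference of Pcdh18 was -0.30 (SE 1.24).

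Pcdh20 and Pcdh15 completed the tested set. Pcdh20 had 7.08 TPM in N/D/S replicate 1 and 3.36 TPM in N/D replicate 2, 0.00691 TPM in N/D/S replicate 2 and a listing at 0 in N/D replicate 1, the order of libraries also seen for Cdh10 and Cdh18. The log2 difference of Pcdh20 was 0.45 (SE 1.37). Pcdh15, which forms the tip link of hair cells with Cdh23, had 0.869 and 1.008 TPM across N/D/S against 0.00565 and 1.31 TPM across N/D, with a log2 difference of 0.35. Cdh23 itself reached at least 1 TPM in N/D/S replicate 2 alone, at 1.87 TPM, and was not tested. Hair cell markers were at or near 0, since Atoh1, Pou4f3, Gfi1 and Myo7a summed to at most 0.732 TPM in any library.

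The 12 members that were not tested were Cdh1, Cdh3, Cdh5, Cdh9, Cdh12, Cdh15, Cdh16, Cdh17, Cdh19, Cdh23, Cdh26 and Pcdh12. Apart from Cdh23, the highest value among them was the 1.41 TPM of Cdh12 in N/D/S replicate 1. Cdh12 and Cdh9 had 0.461 and 0.842 TPM in N/D replicate 2, and both were listed at 0 in N/D/S replicate 2 as well as N/D replicate 1. The endothelial members Cdh5 (VE-cadherin) and Pcdh12 had at most 0.00739 TPM. Cdh19, known from Schwann cell precursors, had at most 0.0775 TPM, while the 5 neural crest and Schwann cell markers summed to between 12.2 and 42.8 TPM. Kidney and gut cadherins Cdh16 and Cdh17 had at most 0.899 and 0.0284 TPM, and Cdh26 was listed at 0 in all 4 libraries.

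Across the members, 0 of 23 were called higher and 0 of 23 lower for N/D/S when limma p-values were adjusted by Benjamini-Hochberg over all 12975 tested genes (threshold 0.05). The background was the same, since 0% of all tested genes were called in either direction. At an unadjusted p under 0.05 there were 0 members and 8 genes. The fitted difference pointed towards N/D/S in 15 members and towards N/D in 8, where 61.4% of all tested genes pointed towards N/D/S, with a median of 0.35 against 0.26 over all tested genes. SEs of the members lay between 1.00 and 1.81, and the difference exceeded the residual SD between libraries of a line in 3 of the 23 members, where it did so in 27.2% of all tested genes. No member had both N/D/S libraries below both N/D libraries, which held for 8.23% of all tested genes. With 2 libraries per line, a two-sided exact permutation test of a single gene cannot give a p below 0.333.

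**Figure D2:**
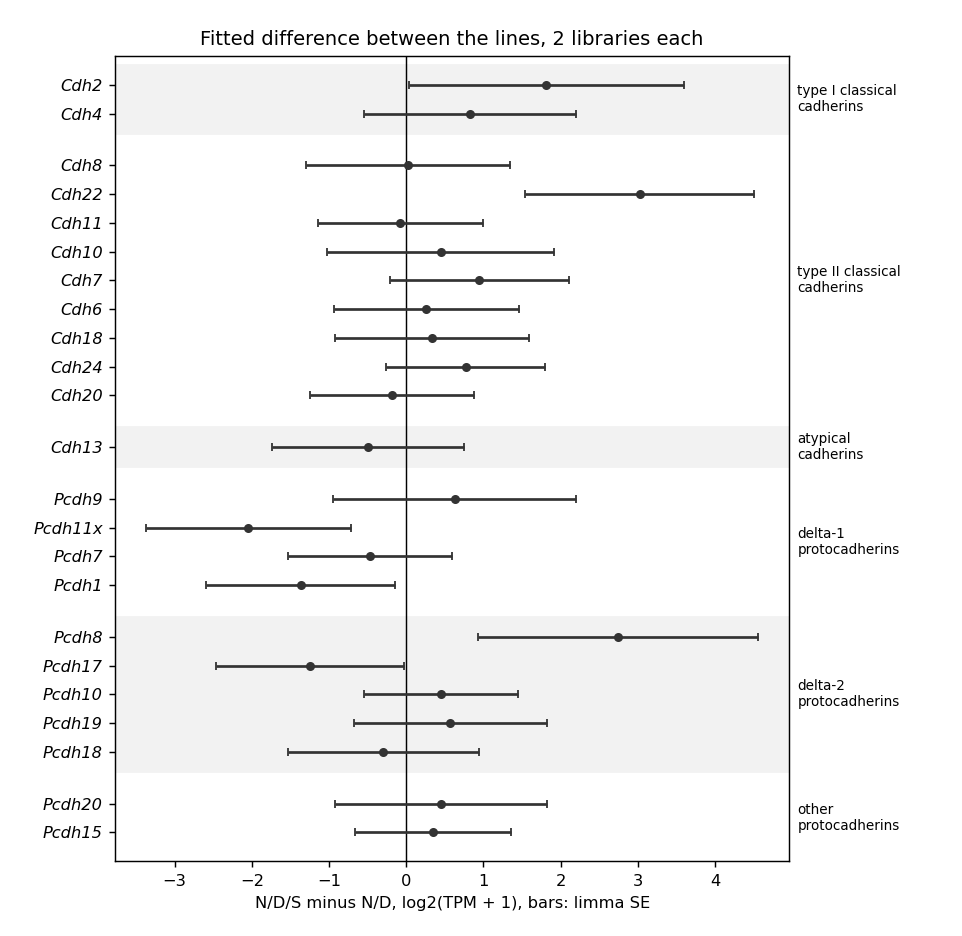
Fitted difference of N/D/S minus N/D on the log2(TPM + 1) scale for the 23 tested members, with bars of 1 limma SE on each side (2 libraries per line). Cdh22 at 3.03 and Pcdh8 at 2.75 lie farthest towards N/D/S and Pcdh11x at -2.05 farthest towards N/D, and no member passed the adjusted threshold.

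The sign of the difference between lines was compared within each replicate number, as a description only, since the labels do not say that a shared number pairs libraries and the other pairing can give other signs (for Pcdh11x, 7.84 TPM in N/D/S replicate 1 against 5.75 TPM in N/D replicate 2). Within replicate 1, 19 of 23 members were higher in N/D/S (82.6%), where 72.5% of all tested genes were. Within replicate 2, 22 of 23 were lower in N/D/S (95.7%), where 74.7% of all tested genes were. The sign thus differed between replicate numbers in 18 of 23 members (78.3%), against 65.6% of all tested genes, and in each of the 18 the N/D/S library was the higher in replicate 1 and the lower in replicate 2, an order found in 56.6% of all tested genes. The median log2 difference of the members was 1.76 in replicate 1 and -1.42 in replicate 2, where the medians of all tested genes were 1.14 and -0.62. Cdh22 alone was higher for N/D/S in each replicate number, and Cdh13, Pcdh1, Pcdh11x and Pcdh17 were lower in both. Whether the members differ from other genes in these shares was not tested.

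**Figure D3:**
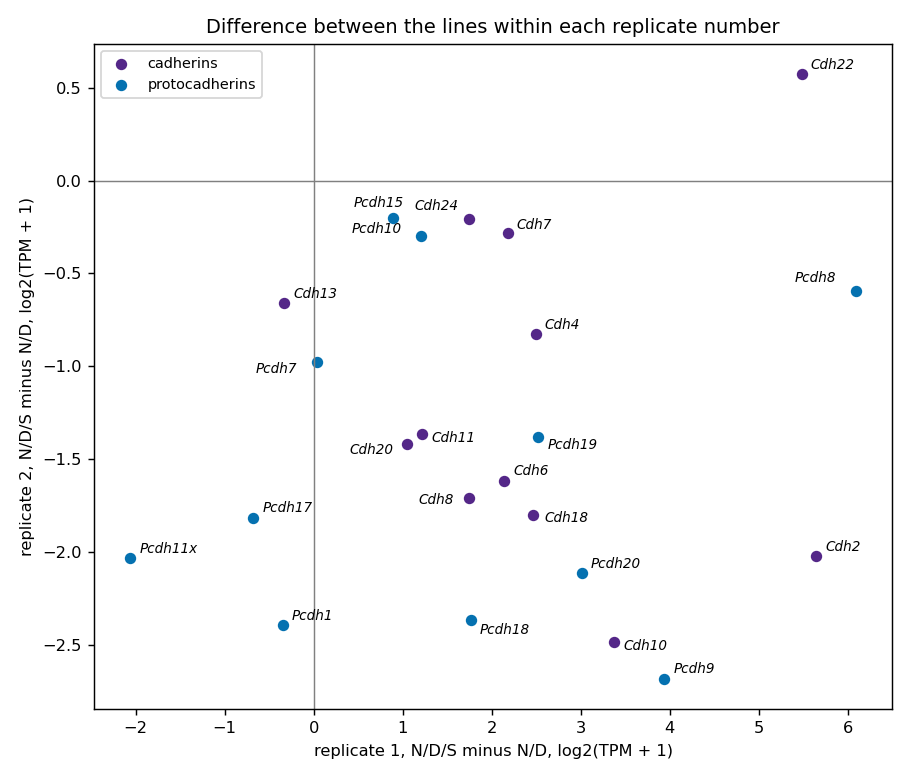
Difference of N/D/S minus N/D on the log2(TPM + 1) scale within replicate 1 (horizontal) and within replicate 2 (vertical), 1 point per tested member, with cadherins in purple and protocadherins in blue. Cdh22 alone lies above 0 on both axes, 4 members lie below 0 on both, and 18 members are in the lower right part, above 0 in replicate 1 and below 0 in replicate 2.

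Leaving out single libraries changed these directions, with a lone library then assumed to vary like the other line and every gene given the same pooled variance. The number of members pointing towards N/D/S was 5 of 23 when N/D replicate 1 was removed and 18 when N/D replicate 2 was. Removing a library of N/D/S gave 8 (replicate 1) and 22 (replicate 2). Calls were made only without N/D replicate 2, when N/D was represented by the library with the most genes at 0. Then 3 of 23 members were called higher, Cdh22 at 5.13, Pcdh8 at 5.59 and Cdh2 at 4.27 log2 units (adjusted p = 0.000342, 0.0001 and 0.0031 from limma), and Pcdh11x was called lower at -3.27 (adjusted p = 0.0291). These calls rest on 1 SE of 1.15 shared by all members, while the SD between the N/D/S libraries was 0.49 for Cdh22, 0.71 for Pcdh8, 1.94 for Cdh2 and 1.71 for Pcdh11x. The same fit called 17.1% of all tested genes higher and 1.23% lower.

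Members tended to have long transcripts, and levels of long transcripts differed between libraries. The median longest annotated transcript was 5241 bases for the 23 tested members and 3286 bases for the 12869 tested genes with a length in GENCODE M21, and 15 of the 23 members were in the longest of 4 equal classes of genes by this length. In the class with the shortest transcripts, the median level of all tested genes was 4.96, 4.84, 4.76 and 5.06 on the log2(TPM + 1) scale for replicates 1 and 2 of N/D/S and then replicates 1 and 2 of N/D. In the class with the longest transcripts the corresponding medians were 3.78, 2.48, 1.33 and 3.52. The median level of the tested members was 3.42, 1.66, 0.38 and 2.84 in the same order of libraries. The libraries low for long transcripts were thus those low for the members, N/D/S replicate 2 as well as N/D replicate 1. The share of genes under 0.05 TPM in N/D replicate 1 varied little with length, being 30.8%, 33.6%, 35.5% and 34.3% from the shortest to the longest class. The part of transcript length in the differences of single members was not tested.

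**Figure D4:**
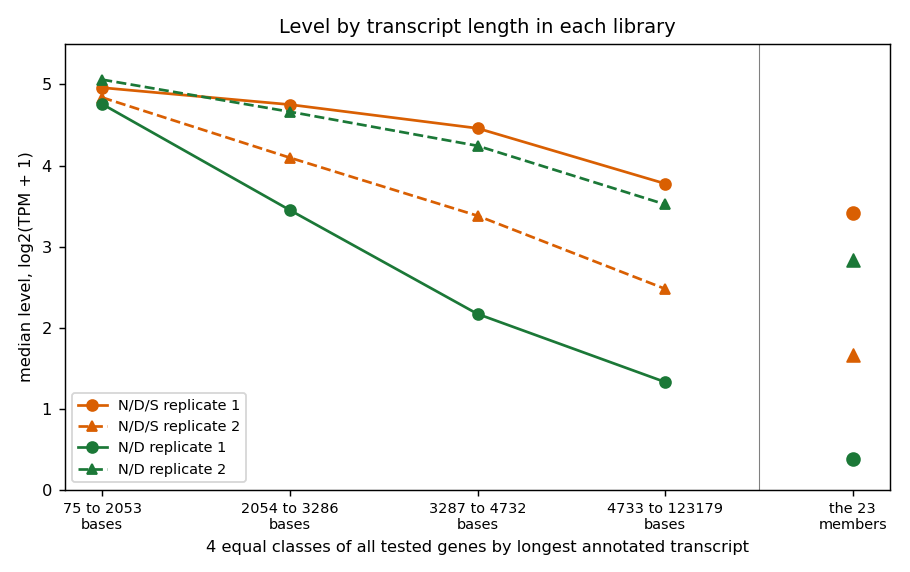
Median level on the log2(TPM + 1) axis for 4 equal classes of all tested genes by longest annotated transcript, with the median of the 23 tested members at the right, 1 line or point per library. The libraries lie between 4.76 and 5.06 for the shortest transcripts and spread for the longest, where N/D replicate 1 is lowest at 1.33, and the members follow the same order of libraries.

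The 35 members lie on 11 chromosomes (GRCm38). Chromosome 8 carries 8 of them (Cdh1, Cdh3, Cdh5, Cdh8, Cdh11, Cdh13, Cdh15 and Cdh16), chromosome 15 carries Cdh6, Cdh9, Cdh10, Cdh12 and Cdh18, and chromosome 14 carries Cdh24, Pcdh8, Pcdh9, Pcdh17 and Pcdh20. Several members span very long stretches of genome, as Pcdh15 with 1550396 bases, Cdh12 with 1140269 bases and Cdh13 with 1041189 bases, whereas Pcdh8 spans 4538 bases.

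Catenins, which connect classical cadherins to actin, were measured in the same libraries. Of 9 catenin genes 8 were tested, with 0 called in either direction. Ctnnb1 (beta-catenin, which binds the cadherin tail and also acts in Wnt signalling) had 227 and 95.1 TPM across N/D/S, 234 TPM in N/D replicate 2, but 0.0625 TPM in N/D replicate 1. Ctnna1 (alpha-E-catenin) had 27.3 and 17.9 TPM in N/D/S, 23.2 TPM in N/D replicate 2 and was listed at 0 in N/D replicate 1. The neuronal alpha-catenin Ctnna2 was present in that library, with 104 and 34.1 TPM across N/D/S against 88.7 and 78.5 TPM across N/D. The log2 differences were 3.23 (SE 2.31) for Ctnnb1, 2.23 (SE 1.56) for Ctnna1 and -0.48 (SE 1.04) for Ctnna2. Without N/D replicate 1 they were -0.67 for Ctnnb1 and -0.064 for Ctnna1. Without N/D replicate 2, which left N/D with 1 library, they were 7.12 for Ctnnb1 and 4.53 for Ctnna1. Jup (plakoglobin) had 87.8 and 85.6 TPM across N/D/S against 40.9 and 54.7 TPM across N/D, so that both N/D/S libraries were the higher, with a log2 difference of 0.86 (SE 0.96, adjusted p = 1 from limma). Pkp4 (p0071, a relative of p120-catenin) had 7.55 and 0.881 TPM across N/D/S against 22.6 and 8.80 TPM across N/D, with both N/D/S libraries the lower and a log2 difference of -1.92 (SE 1.17, adjusted p = 1 from limma). Ctnnd1 (p120-catenin, which keeps cadherins at the membrane) had 22.1 and 4.67 TPM across N/D/S against 38.0 and 14.4 TPM across N/D, and its log2 difference was -1.10 (SE 1.15). Ctnnd2 (delta-catenin of neurons) had 46.6 and 12.0 TPM across N/D/S against 6.27 and 30.3 TPM across N/D, a log2 difference of 0.72 (SE 1.21). Arvcf, another relative of p120-catenin, had 82.7 and 38.7 TPM across N/D/S against 111 and 58.2 TPM across N/D, a log2 difference of -0.50 (SE 1.03). Ctnnd1 was lower for N/D/S under each replicate number, as was Arvcf.

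**Figure D5:**
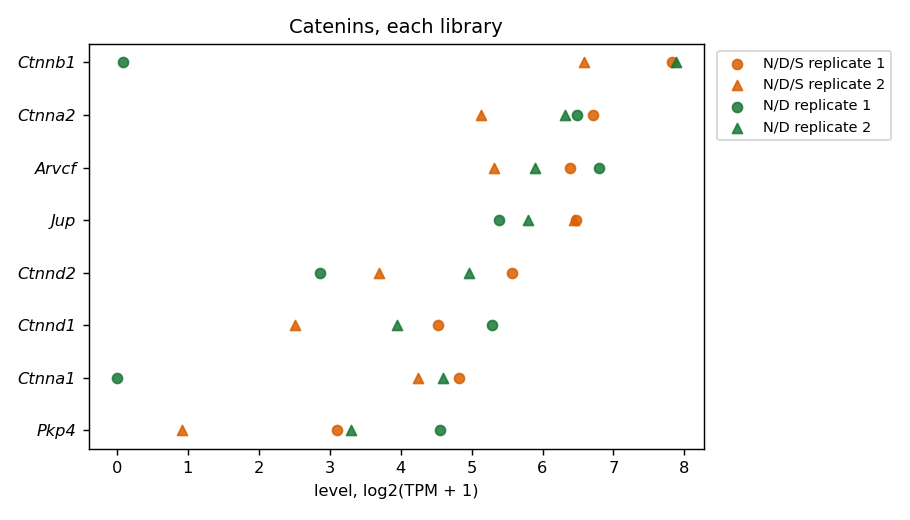
Level of the 8 tested catenins on the log2(TPM + 1) axis, 1 point per library, with N/D/S in orange, N/D in green, circles for replicate 1 and triangles for replicate 2. Ctnnb1 and Ctnna1 are near 0 in N/D replicate 1 and above 4 in the other libraries, while Jup has both N/D/S points above both N/D points.

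Of 76 genes in the lists of adhesion partners, catenins included, 50 were tested, and 0 were called in either direction. Their median log2 difference was 0.54, against 0.26 over all tested genes, and 15 of the 50 had under 0.05 TPM in N/D replicate 1. Both N/D/S libraries were above both N/D libraries for 4 of the 50 (Jup, Ppp1ca, Ush1c and Nectin2) and below them for 2 (Pkp4 and Celsr2), where 8.69% of all tested genes were above and 8.23% below. Ppp1ca, the catalytic phosphatase subunit bound by delta-1 protocadherins, had 813 and 1028 TPM across N/D/S against 742 and 602 TPM across N/D. Brk1, a small subunit of the WAVE complex that delta-2 protocadherins can recruit, had 228 and 179 TPM across N/D/S against 429 and 222 TPM across N/D. Set, a histone chaperone and inhibitor of another phosphatase, had 478 and 160 TPM across N/D/S against 128 and 455 TPM across N/D.

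Among repressors of cadherin genes, Snai1 and Snai2 did not exceed 0.615 TPM and were not tested. Tcf3 had 52.7 and 39.3 TPM across N/D/S against 1.79 and 50.9 TPM across N/D. Zeb1, a direct repressor of Cdh1, had 23.9 and 5.24 TPM across N/D/S against 71.2 and 23.2 TPM across N/D. Zeb2, which also steers interneurons of the medial ganglionic eminence, had 35.0 and 6.98 TPM across N/D/S against 2.01 and 22.3 TPM across N/D. The Zeb genes thus differed in N/D replicate 1, the library in which Zeb1 was highest and Zeb2 lowest. In the list of genes that act with catenins or actin, Afdn (afadin, the partner of nectins) had 114 and 27.2 TPM across N/D/S. It had 69.9 and 99.3 TPM across N/D. Ctnnbip1 and Lima1, in the same list, had means of 45.3 and 7.33 TPM over the 4 libraries. Numb, an endocytic adaptor for cadherins, had 15.2 and 0.00676 TPM across N/D/S against 34.9 and 7.35 TPM across N/D, whereas Cbll1 (Hakai, an E-cadherin ubiquitin ligase) was listed at 0 in N/D replicate 1 and had at least 10.7 TPM elsewhere.

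Nectin2, an adhesion protein that binds afadin, had 60.7 and 58.1 TPM across N/D/S against 26.6 and 42.4 TPM across N/D. Nectin3 had 15.2 and 7.84 TPM across N/D/S against 0.0495 and 35.7 TPM across N/D, and Nectin4 had 20.7 TPM in N/D replicate 1 and at most 1.47 TPM in the others. The calsyntenins Clstn3 and Clstn1, cadherin-repeat proteins of synapses, had between 14.4 and 71.7 TPM and between 30.8 and 67.7 TPM over the libraries. Ret, a receptor with cadherin repeats, had 37.3 and 2.17 TPM across N/D/S against 18.9 and 1.23 TPM across N/D, so that both replicate 1 libraries were the higher. Of the 8 tip link partners 3 were tested, Cib2 at 0.0383 TPM and Lhfpl5 and Ush1c at 0 in N/D replicate 1, and Cib2 had between 26.8 and 34.4 TPM in the others. None of the 9 desmosomal cadherins reached the filter, the highest value being 0.196 TPM.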

How the data were processed

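RNA of sorted tdTomato+ neurons was poly-A selected and sequenced on an Illumina instrument after TruSeq library construction. The authors pseudoaligned reads with kallisto 0.44.0 and deposited TPM per gene symbol, 1 table per library. The submitters' processing notes name GRCm38. The transcriptome release and the way transcripts were combined into genes are not given in the sources used here, and depth is unknown. Tables were joined on symbol, and 24 symbols turned into dates were dropped, leaving 34968 shared symbols. Groups and replicate numbers came from the sample titles. Genes reaching 1 TPM in 2 or more libraries (12975) were tested with limma 3.58.1 in R 4.3.3 on log2(TPM + 1), 2 libraries against 2, without covariates, with Benjamini-Hochberg adjustment across all genes and a threshold of 0.05. A fold on this scale understates changes of low genes. The sleuth test of the study could not be run on TPM alone. The fit was also run on simulated data with a shift of fixed size, independent noise and no library like N/D replicate 1. It recovered changed genes where libraries of a line differed little but not at the spread seen here. An absence of calls thus does not show that levels were alike. Every tested member was named, with the catenins tested and up to 3 partner genes of highest mean TPM per list, of which 1 is not reported here. Members and lists were chosen with earlier results of these data known. Positions and lengths are from GENCODE M21 and promoters from RefSeq (GRCm38.p6). Python 3.11.15, pandas 2.3.3 and matplotlib 3.10.9 were used.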

Additional observations from a re-analysis of the deposited data

How the results depend on the processing

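As in the fit reported, 0 members and 0 genes were called in either direction with a pseudocount of 0.1 TPM, without the filter, with at least 1 TPM required in every library, and with median-of-ratios or upper quartile scaling. A variance trend gave 5 genes higher and 1 lower and 0 members. Upper quartile scaling moved the median of all genes from 0.26 to 0.49, where the median of the members was 0.42. Requiring 1 TPM in every library left 9 members, with a median of 0.02 against -0.15 over all genes. Cdh8 was -0.037 with a pseudocount of 0.1 TPM and -0.048 with median-of-ratios scaling, and Cdh11 was 0.22 with upper quartile scaling. The cause was not tested. Leaving out 1 library at a time gave 0 to 2213 genes higher and 0 to 160 lower, 0 to 3 members higher and 0 to 1 lower, and a member median of -0.87 to 1.009. The calls came from leaving out N/D replicate 2. Over these fits the log2 differences ranged as follows: Cdh10 -1.23 to 2.11, Cdh11 -0.78 to 0.63, Cdh13 -1.63 to 0.64, Cdh18 -0.89 to 1.55, Cdh2 -0.65 to 4.27, Cdh20 -0.90 to 0.53, Cdh22 0.92 to 5.13, Cdh24 0.11 to 1.43, Cdh4 -1.01 to 2.67, Cdh6 -0.87 to 1.39, Cdh7 -0.30 to 2.198, Cdh8 -1.70 to 1.74, Pcdh1 -2.75 to 0.011, Pcdh10 -0.024 to 0.92, Pcdh11x -3.27 to -0.82, Pcdh15 -0.25 to 0.95, Pcdh17 -2.50 to 0.0097, Pcdh18 -1.50 to 0.90, Pcdh19 -0.83 to 1.97, Pcdh20 -1.05 to 1.95, Pcdh7 -1.28 to 0.34, Pcdh8 -0.10 to 5.59, Pcdh9 -1.06 to 2.31, Ctnna1 -0.064 to 4.53, Ctnna2 -1.26 to 0.31, Ctnnb1 -0.67 to 7.12, Ctnnd1 -2.11 to -0.08, Ctnnd2 -0.33 to 1.77, Jup 0.66 to 1.07, Arvcf -1.04 to 0.042, Pkp4 -3.01 to -0.83. With the replicate number as a replicate block, 0 genes and 0 members were called. Then 9 genes had an unadjusted limma p under 0.05, against 8 without the block. The member median was 0.35 by design, since in this balanced layout a block cannot change a fitted difference. Deviations of same-numbered libraries had a correlation of 0.02 across genes, and the labels do not say what a shared number stands for, so the numbers were not taken to pair the libraries. TPM without read counts give no limit of detection for members listed at 0.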

Other observations

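N/D replicate 1 had 33.6% of tested genes under 0.05 TPM. It held the highest level of 4 of the 23 tested members, Cdh13, Pcdh1, Pcdh11x and Pcdh17, where 21.2% of all tested genes were highest in that library. It also held the highest level of 10 of the 50 tested adhesion partners, including Ctnnd1, Arvcf, Pkp4, Numb, Zeb1, Brk1 and Nectin4. N/D/S replicate 1 held the highest level of 13 members and 27 partners (38.7% of all tested genes). For N/D replicate 2 these were 6 and 6 (25.3% of all tested genes). The remaining library, the other one of N/D/S, held 0 and 7 (14.7% of all tested genes).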
